A study of Drosophila melanogaster with 2 samples.

Results

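Accessible chromatin was examined at teashirt (tsh) and tiptop (tio) on 2L and at disconnected (disco) and disco-related (disco-r) on X, which form 2 pairs of zinc finger paralogues in Drosophila melanogaster. The members are the rows of the deposited peak list that overlap the body of 1 of the 4 genes or lie within 5 kb of its ends, and 16 of the 26571 regions met this rule. The genes were chosen by the high fold and score at tsh and disco in this same list, so their levels are given as a description, with no test. The list comes from ATAC-seq, in which a transposase inserts sequencing adapters into open DNA. The series holds 1 group of 2 libraries of ML-DmD17-c3 (D17) cells with no treatment named, a line derived from the larval haltere imaginal disc. The list was taken as the authors' list for this group, because the series holds D17 libraries alone. Its region names carry the letters HD, for which no meaning is stated, and whether both libraries entered it is not known. It holds 1 value per region and names no replicate, so no spread between the libraries can be given. It reports no RNA, so the haltere origin could not be checked against expressed markers, and accessibility is not a measure of expression.

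C2H2 zinc finger proteins bind DNA and regulate transcription. In the fly embryo Tsh works with the Hox proteins to give trunk segments their identity, and in wing, haltere and leg discs it is known as a proximal factor that acts beside Homothorax. Tio is its closest fly relative and can take over part of its work. Disco is named for the failure of the larval visual nerve to connect with the brain in mutants. Together with Disco-r it is needed for the gnathal segments of the head, and disco also acts with Distal-less in ventral appendages.

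Each value below is the authors' fold enrichment, which divides the read pileup at a region's summit by a background value. At 39.7% of regions this background was the lowest of the list, 44.4 reads, and folds among them differ by pileup alone. The 95% interval of a fold is an exact Poisson interval of the recovered pileup at a fixed background, and it covers counting error only. Over the whole list the fold had a median of 1.90, and strong regions are the highest 10% of it with ties kept, which gave 2683 regions (10.1%) with a fold of at least 2.999. Gene positions come from a Release 6 table that holds no strand and no exons. The text therefore speaks of the lower and upper coordinate end of a gene, and start and stop, or exon and intron, cannot be told apart.

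The tsh gene (2L 21828593 to 21837011) carried the highest fold among the 16 regions, at its lower end. This region (2L 21828054 to 21829217, 1164 bp wide) had a fold of 10.3 (interval 9.57 to 11.15), with a pileup of 670 reads over a background of 63.9. Its summit lay 23 bp inside the gene. It ranked 43rd in the list by fold and 8th of the 5038 regions on 2L. The second region lay inside the gene (2L 21833546 to 21835467) and was the widest of the 16 with 1922 bp, but its fold was 2.45 (2.02 to 2.95) and its pileup 110 reads. The other two lay past the upper end, 3227 and 4475 bp from it, with folds of 1.83 (1.46 to 2.27) and 1.52 (1.19 to 1.92). The regions of tsh were thus 1 strong one and 3 that were not strong, whose intervals did not reach that of the first. Of these 3 the inner one lay above the list's median fold of 1.90. No region overlapped the window of 500 bp around the upper end.

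The tio gene (2L 22019208 to 22025734) had its highest region inside the gene and a lower one at the lower end. The inner region (2L 22024295 to 22024841, 547 bp wide) had a fold of 6.91 (interval 6.24 to 7.63) from a pileup of 391 reads over 55.7. Its summit lay 1185 bp short of the upper end. The region over the lower end (2L 22018735 to 22019911, 1177 bp wide) had a fold of 3.63 (3.14 to 4.17) with 195 reads over 53.0. Both were strong, and their intervals did not overlap. The lower-end region also overlaps lncRNA:CR33987, which is annotated from the same coordinate as tio, so the list cannot assign it to either gene. The remaining 2 regions, with folds of 1.89 and 1.58, lay inside the neighbouring protein-coding gene CG31693.

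Both teashirt paralogues thus had a region over the lower end, of 1164 bp at tsh and 1177 bp at tio, and the intervals of their folds, 10.3 and 3.63, did not overlap. Where tsh was highest at that end, tio was highest inside the gene. Without strand, the lower end need not be the same end of both genes, and the region at tio also overlaps lncRNA:CR33987.

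**Figure D1:**
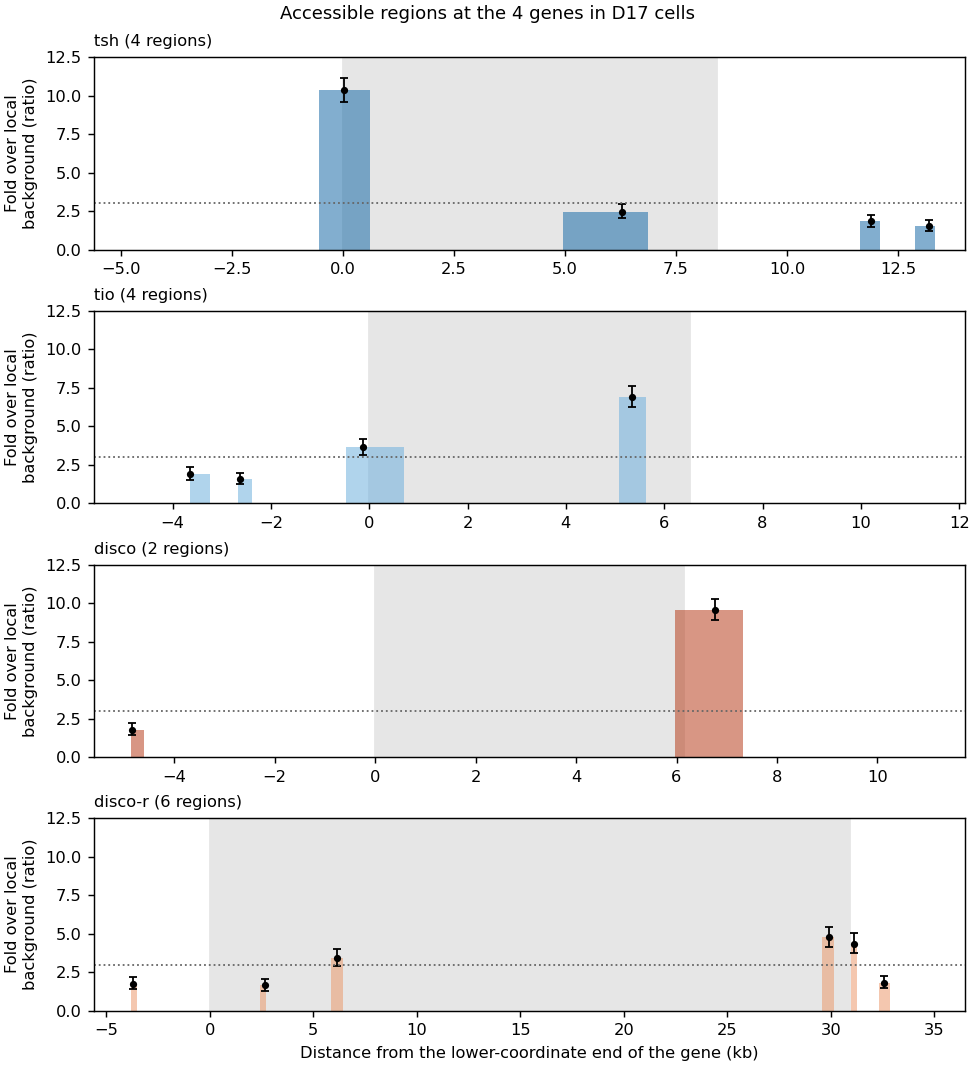
Fold over local background (vertical axis, ratio) of each region against its distance in kb from the lower-coordinate end of the gene (horizontal axis), with the gene body in grey, the width of each bar equal to the region's width, points at the summit with 95% Poisson intervals, and a dotted line at the strong threshold of 2.999. The highest bars are at the lower end of tsh (10.3) and the upper end of disco (9.57), while tio reaches 6.91 inside the gene and disco-r 4.78 near its upper end.

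The disco gene (X 16210598 to 16216750) had 2 regions, and the one over the upper end had the higher fold. This region (X 16216573 to 16217916, 1344 bp wide) had a fold of 9.57 (interval 8.90 to 10.3), ranked 60th in the list and 15th of the 3623 regions on X. Its pileup of 740 reads was the highest of the 16, over a background of 76.4, which was also the highest. The summit lay 611 bp beyond the gene, so a rule that asks for a summit within 500 bp of an end counts tsh, tio and disco-r but not disco, and 44.6% of protein-coding genes meet it. The other region (X 16205745 to 16205994, 250 bp wide) lay 4604 bp below the gene with a fold of 1.76 (1.40 to 2.19). No region lay wholly inside disco, and no region followed the high one for 52990 bp. Of the 26564 gaps between neighbouring regions in the list, 0.606% were that long or longer, against a median gap of 1972 bp.

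The disco-r gene (X 16118067 to 16148977), the longest of the 4 at 30911 bp, had 3 strong regions and 3 with folds below the list's median. The highest (X 16147665 to 16148246) had a fold of 4.78 (interval 4.17 to 5.46) with 216 reads, and its summit lay 969 bp inside the upper end. Next to it, 88 bp past that end, a region (X 16149065 to 16149353) had 4.37 (3.78 to 5.02) with 197 reads. These neighbours had overlapping intervals, and another region followed 1444 bp past the end with a fold of 1.83. A strong region of fold 3.42 (2.90 to 3.998, 154 reads) had its summit 6142 bp inside the lower end (X 16123925 to 16124523), and its interval includes the threshold of 2.999. Between it and the highest region were 23141 bp without a region, a length reached by 2.75% of gaps. The other two, with folds of 1.74 and 1.65, lay below the gene and near its lower end.

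Both disco paralogues thus had their highest region near the upper end, with a fold of 9.57 past the end of disco against 4.78 inside disco-r. These intervals did not overlap. Without strand, the upper end need not be the same end of both genes. Among the 4 genes the order of the highest fold was tsh, disco, tio and disco-r. The intervals of tsh and disco overlapped, while those of tio and disco-r overlapped neither each other nor those of tsh and disco. Since these intervals cover counting error only, at summits of genes chosen for this signal, they do not test whether genes differ. The summit of the highest region lay within 500 bp of an end at tsh alone of the 4, against 17% of the 13032 protein-coding genes with a region. Within 1200 bp, a limit set after the distances were seen, it did so at all 4, against 36.3%.

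Pileup and background gave a different order at the top. By pileup disco (740 reads) stood above tsh (670), and the score, which follows the q-value, also ranked disco (56th, score 4406) above tsh (60th, score 4197). The fold of disco was the lower because its background was 76.4 reads against 63.9. At 10 of the 16 regions the background was 44.4 reads, the lowest of the list, which 39.7% of all regions share. The exceptions were the highest regions of tsh and disco and all 4 regions of tio, at 45.6 to 76.4. All 6 regions of disco-r had the lowest background, so their folds differ by pileup alone, from 74 to 216 reads. The median background was 48.8 reads on 2L and 47.6 on X. The part of chromosome copy number in these values was not tested.

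**Figure D2:**
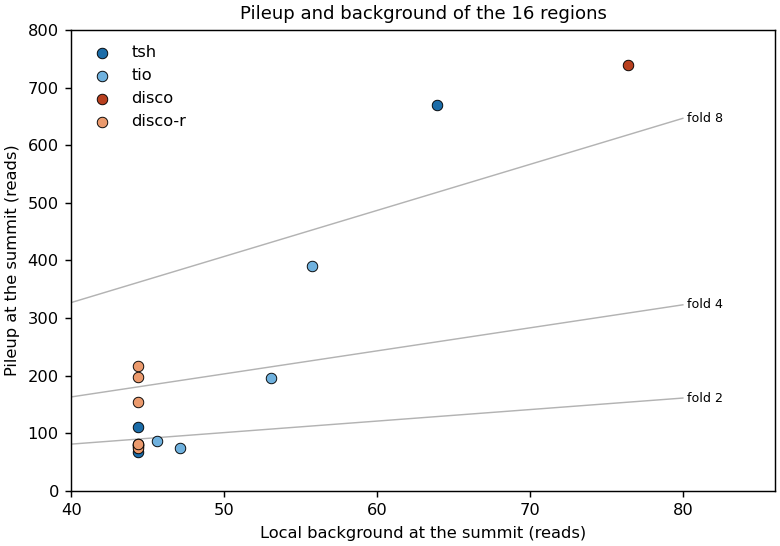
Read pileup at the summit (vertical axis, reads) against local background (horizontal axis, reads) for the 16 regions, coloured by gene, with grey lines of equal fold at 2, 4 and 8. The highest points are disco at 740 reads over 76.4 and tsh at 670 over 63.9, and 10 regions share the lowest background of 44.4.

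The 16 regions varied widely among themselves. Folds ran from 1.52 to 10.3 with a median of 2.17, and 8 of the 16 lay above the list's median of 1.90. Strong regions numbered 7 of the 16, against 10.1% of all regions in the list. Of these 7, tsh had 1, tio 2, disco 1 and disco-r 3. Because the genes were chosen for high signal in this list, nothing is read from this count or from its split by place. By place, all 3 regions that crossed an annotated end were strong (3.63 to 10.3), as were 3 of 5 inside genes and 1 of 4 above them, while the 4 below the genes had folds of 1.58 to 1.89. The 8 regions above that median were 289 to 1922 bp wide and the 8 below it 250 to 494 bp. The 4 regions of at least 1000 bp were those over the ends of tsh, tio and disco and the inner region of tsh, whose fold was 2.45. Across the list 16.9% of regions were at least that wide, and of strong regions 33.0%.

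All 4 genes had a region within 5 kb, as did 93.4% of the 13946 protein-coding genes, and all 4 had a strong one, against 28.3%. That share depends on the length searched. With a division at 20 kb, set after the windows were seen, it was 23.7% for shorter windows, the class of tsh, tio and disco, and 56% for longer ones, the class of disco-r. At least 2 strong regions, as at tio and disco-r, were found at 6.67% of genes. A region within 500 bp of an end was found at all 4 members, against 68.6% of genes, and a strong one at an end at all 4, against 11.4%. Since the genes were chosen for this signal, nothing is read from these counts. Each member had a region at 1 end only, as had 39.4% of genes, while 29.2% had regions at both ends. With a window of 1000 bp tio had regions at both ends. By highest fold within 5 kb tsh ranked 44th of the 13032 genes with a region, disco 61st, tio 266th and disco-r 1122nd, and the median gene had 2.45. The number of regions was 4 at tsh and tio, 2 at disco and 6 at disco-r, beside a median of 4. The windows of the members were 16153 to 40911 bp long against a median of 12161 bp, and these counts are not corrected for length. A region within 5 kb of several genes counts for each of them, so close neighbours can share their highest region.

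**Figure D3:**
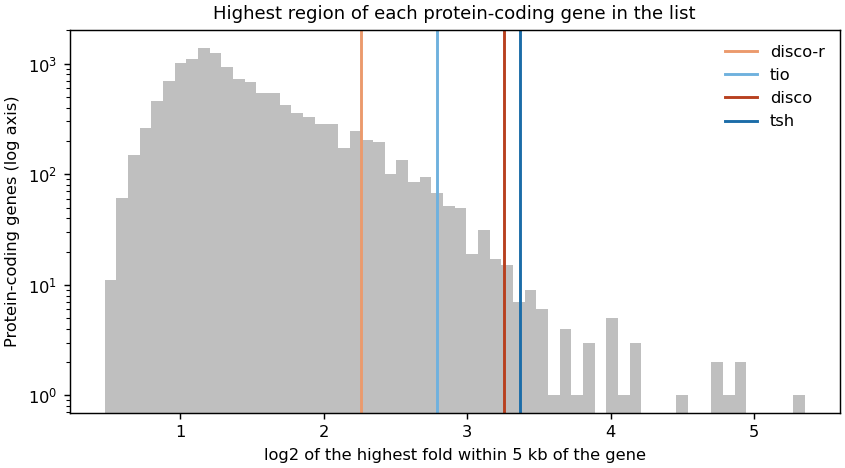
Number of protein-coding genes (vertical log axis) by the log2 of the highest fold within 5 kb of the gene (horizontal axis), for the 13032 genes with a region, with coloured lines at the 4 genes. The lines of tsh and disco fall in the sparse right tail, and that of disco-r, ranked 1122nd, nearer the bulk.

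Where these genes lie was not part of the choice. Both tsh and disco stand far from other protein-coding genes, the only genes counted here. The next one was 33145 bp below and 59654 bp above tsh, and 61620 bp below and 48491 bp above disco. Of the 13933 protein-coding genes with a neighbour on each side, 0.732% have both over 25 kb away, a limit chosen after these distances were seen. For disco-r the distances were 13120 and 61620 bp, the latter to disco itself, and for tio 1873 and 12125 bp. The median gene had 112 bp below and 110 bp above. Regions were sparser at these genes than in the median gene's window: 2.17 per 10 kb at tsh, 2.42 at tio, 1.24 at disco and 1.47 at disco-r, beside 3.26. The average over the chromosomes spanned was 1.93. The window of tsh also holds the pseudogene CR46424, which no region overlapped, and those of disco and disco-r hold no other gene.

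The limit of 5 kb left out strong regions of the same neighbourhoods. On the upper side of tsh the last region inside the limit had a fold of 1.52, and the first outside, 9111 bp from the gene (2L 21846122 to 21847953, 1832 bp wide), had 6.59 (interval 5.93 to 7.30) with 364 reads. That ranked 250th in the list. Below tio the first region outside, at 6628 bp, had a fold of 2.91 (2.44 to 3.45), above both low regions inside the limit. Around disco and disco-r the first regions outside had folds of 1.68 to 2.85 and lay 11124 to 54157 bp away.

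The stretch between tsh and tio, 182196 bp long, held 23 summits, 1.26 per 10 kb. Beyond 5 kb of either gene there were 18 regions, 2 of them strong: the one of fold 6.59 above tsh and one of 5.09 (interval 4.46 to 5.79) that lay 61900 bp from tsh and 119293 bp from tio (2L 21898911 to 21899915). Neither summit fell inside an annotated gene. The stretch holds 7 other protein-coding genes and 14 genes of other types. Between disco-r and disco, 61620 bp with no other protein-coding gene but 2 genes of other types, 4 regions lay beyond 5 kb of both. Of these 1 was strong (X 16178921 to 16180015, fold 4.30, interval 3.72 to 4.95, 194 reads), 29944 bp from disco-r and 30583 bp from disco. These distances do not say which gene, if any, a region serves.

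**Figure D4:**
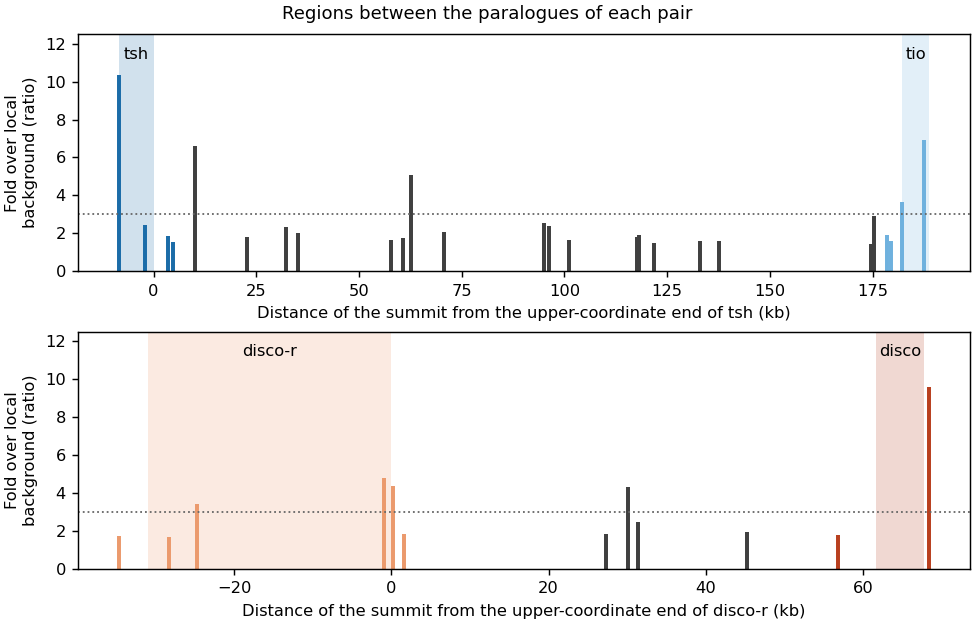
Fold over local background (vertical axis, ratio) against distance in kb from the upper-coordinate end of tsh (top) and of disco-r (bottom), with gene bodies shaded, regions within 5 kb of the 4 genes in colour, the other regions of the stretch in dark grey and a dotted line at 2.999. Between the genes 3 dark bars pass the line, at folds of 6.59, 5.09 and 4.30.

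Partners of these factors in appendage and trunk patterning were listed, and their values are set beside these levels. This partner list also holds eye and head patterning genes and effectors of signalling pathways. The list of 43 genes was chosen with earlier results of these data known, and all 43 had a region within 5 kb. A strong one was found at 34 of the 43 (79.1%), against 28.3% of all protein-coding genes, but the listed genes are long, with a median window of 29487 bp against 12161 bp. In windows of up to 20 kb it was 8 of 14, against 23.7%, and in longer ones 26 of 29, against 56%. The median of their highest fold was 4.19, beside 2.45 for all genes with a region, with no match for window length. Since the list was chosen with earlier results of these data known, nothing is read from these shares and medians. Of the 43 genes, dac and hth had a higher fold than tsh and disco. Those above tio numbered 10, and those above disco-r 19.

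Highest among them were dac (fold 10.7), which patterns the middle of the leg, and hth (10.5, interval 9.62 to 11.4), the Meis-class partner of tsh in proximal appendages. The intervals of dac, hth and tsh overlap. Then came sd (9.25), the TEAD factor that binds Yorkie and Vestigial, wg (8.64), a Wnt ligand, noc (8.18), a zinc finger gene of appendage patterning, and nub (7.62), a POU factor of the wing. The 9 genes without a strong region were slp1, C15, abd-A, toy, exd, al, sob, B-H2 and B-H1, with folds from 2.71 down to 1.59. Among them exd, the cofactor that Hth carries into the nucleus, had 2.07 in a window of 14042 bp. The fold of 10.5 at hth came from a window of 142008 bp, so unlike lengths were searched. Dll, the appendage selector that works with disco, had 4.19.

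**Figure D5:**
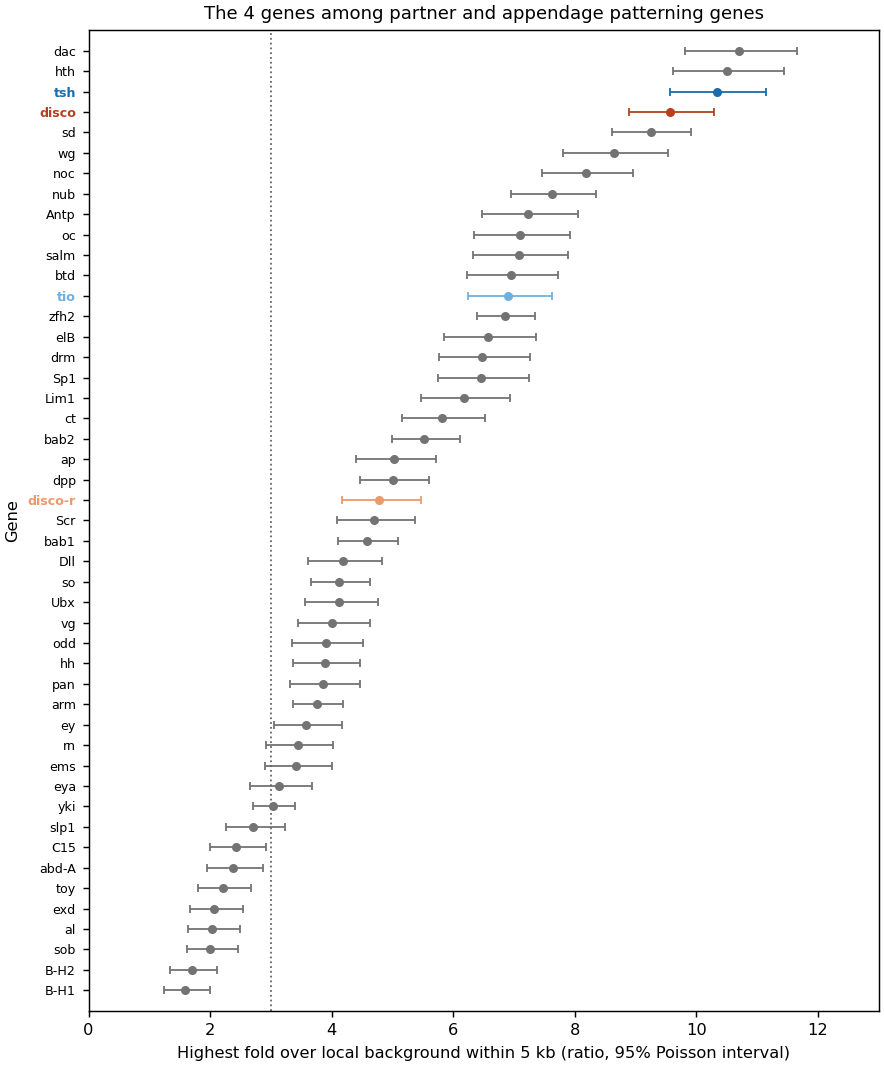
Highest fold over local background within 5 kb (horizontal axis, ratio, with 95% Poisson intervals), ordered by fold, with a dotted line at 2.999. The 43 genes of the partner list are in grey and the 4 zinc finger genes in colour. From the top the order is dac, hth, tsh and disco, and tio and disco-r lie lower at 6.91 and 4.78.

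The genes most like each member were found by distance over the number of regions, the highest fold and the window length, in this 1 list and with each measure on a log2 scale divided by its SD over genes. Nearest to tsh were tx (distance 0.171, 4 regions, highest fold 9.73), CG2201 (0.542) and stwl (0.561). Nearest to tio were RanBPM (0.0486, 4 regions, 6.94), CHKov1 (0.0986) and emb (0.202). For disco they were Dsp1 (0.302, 2 regions, 8.67), Df31 (0.484) and CG32320 (0.520), and for disco-r tara (0.328, 6 regions, 5.25), CG17816 (0.368) and REPTOR (0.406). CG2201 and Df31 have the same highest fold, 8.60.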

How the data were processed

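ATAC-seq libraries of D17 cells, replicates 1 and 2, made up 1 group. Per the submitters' processing notes, the tools were MACS2 2.2.6, Bowtie2 2.3.5.1, bedtools 2.29.2, Trim Galore 0.6.4 and SAMtools 1.13, with the builds dm6 and BDGP6, and no roles are stated. Read shifting, pooling of the libraries and the depth per library are not given in the sources used here. This deposited list has 10 columns and no header. From its layout and values, the authors' columns are a score, a fold ratio, and −log10 p-values and q-values of the summit. In 99.95% of regions the deposited score was the −log10 q times 10 without its decimals. A group-wide value has no SD.

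The pileup behind each fold was recovered as the whole number that gives the deposited p-value under a Poisson background, with 1 added to pileup and background in the ratio. The largest relative error over the 26571 regions was 2.11e-05, and the recovery was checked on simulated data. Overlap meant at least 1 bp. Genes came from the Release 6 RefSeq table, matched by symbol, and all 4 members and 43 listed genes matched (otd as oc). dm6 has the same coordinates. Sequences were not used here, so the planned protein and promoter descriptions were not made. Members and lists were chosen with earlier results of these data known. The rule for named genes was the 4 members with the regions at their ends and their 5 highest folds, genes overlapping their windows, the 6 highest of the partner list and any without a region, and the 3 most alike. Genes of that list without a strong region, and Dll, were named after their values were seen. Python 3.11.15, pandas 2.3.3, numpy 2.4.6, SciPy 1.17.1 and matplotlib 3.10.9 were used.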

Additional observations from a re-analysis of the deposited data

How the results depend on the processing

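The alternatives were windows of 2 and 10 kb, the summit in place of any overlap, the 50% of regions with the higher score, regions merged within 200 bp, end windows of 200 and 1000 bp, and strong regions as the highest 5% of fold or 10% of score. The highest fold of each gene was the same region under each window and by summit. With 2 kb, where fewer bases were searched, the number of regions fell to 2 at tsh, 2 at tio, 1 at disco and 5 at disco-r. With 10 kb it rose to 7 at tsh, 2 of them strong, and to 6 at tio, and stayed at 2 at disco and 6 at disco-r. In the higher-scoring 50% it was 2 at tsh, 2 at tio, 1 at disco and 3 at disco-r. All 4 genes kept a strong region under each alternative, where 14.2% of all genes had one with the highest 5% of fold, 19.8% with 2 kb and 40.8% with 10 kb. For the highest 10% of score no share of all genes is given. Because the genes were chosen for this signal, nothing is read from their keeping it. A region lay at an end of all 4 with 200 bp (44.1% of genes), 1000 bp (80.6%) and the higher-scoring 50% (48.2%). With 1000 bp tio had regions at both ends. By summit it was 3, without disco, where 44.6% of genes qualified. Of the 43 genes of the partner list, 32 had a strong region with 2 kb, 35 with 10 kb and 26 with the highest 5% of fold. The shares of all genes were 19.8%, 40.8% and 14.2%, with no match for window length. No replicate could be left out, as the list has no replicate values. No paired analysis was possible because there is 1 group and the columns carry no replicate number. Without the depth per library, the intervals cover counting error at the summit only.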
